A study of Rattus norvegicus with 12 samples.

Results

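Txnip and Arrdc4 encode a pair of alpha-arrestins, and their signals were followed through 12 whole-lung arrays, 7 from streptozotocin-diabetic and 5 from normal rats. The 2 genes were chosen from a readout of these arrays, since their difference between the groups and their covariation were known when they were picked, and those values are given as a description without a test. Every probe set that the RAE 230A annotation assigned to either gene alone was taken, which gave 1 probe set for Txnip (1371131_a_at) and 1 for Arrdc4 (1391808_at), out of 15866 probe sets and 10411 named genes. Both passed the filter on low signal. In the rat assembly GRCr8, Txnip lies on chromosome 2 (chr2:186781933-186785736) and Arrdc4 on the minus strand of chromosome 1 (chr1:131779436-131793438). The position of the probes within either gene was not analysed here.

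Alpha-arrestins are adaptor proteins that carry PPxY motifs, by which they bring ubiquitin ligases of the NEDD4 family to proteins at the cell surface. Txnip binds reduced thioredoxin, and both Txnip and Arrdc4 lower the uptake of glucose by acting on glucose transporters such as GLUT1. Transcription of both genes rises when phosphorylated glucose accumulates in the cell, through the paralogous factors MondoA (gene Mlxip) and ChREBP (gene Mlxipl), which bind E-box-like sequences as heterodimers with Mlx. Insulin and cell stress also act on the Txnip gene, which has been studied above all in pancreatic beta cells, muscle and liver.

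Diabetic animals were male Wistar rats that had received streptozotocin, a toxin taken up by the beta cells of the pancreas, at 8 weeks of age, and normal animals were male Wistar rats of the same age that had received the buffer without the drug. All were 12 weeks old, after 4 weeks of diabetes in the treated group, and had fasted overnight when both lungs were removed. Streptozotocin diabetes is a model of insulin deficiency in which the drug itself reaches the whole animal. Each array held the RNA of 1 animal, and its MAS 5.0 signals, an intensity on a linear scale, had been scaled to the same trimmed mean (500.1 on every array). In whole lung, fewer cells of a type and less RNA per cell cannot be told apart.

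The lung label fitted the array data. Surfactant protein C (Sftpc), made by alveolar type II cells, had a signal of 24347 ± 2826 in diabetic and 25682 ± 3016 in normal lung (SD, n = 7, 5), and the club cell protein Scgb1a1 had 21550 ± 3243 and 21761 ± 1716. All measured markers of heart and skeletal muscle, adipocytes and hepatocytes lay under the filter. Median signals were 252.7 to 265.6 in diabetic and 259.6 to 272.0 in normal arrays. Diabetic animal 6 stood apart: its mean correlation with its own group across probe sets was 0.948, against 0.963 to 0.971 for the other 6 diabetic arrays. Its 3' to 5' ratio of GAPDH, a measure that can depend on RNA integrity, was 1.30. The other 6 diabetic arrays had 1.10 to 1.17 and the normal arrays 1.23 to 1.44. The same ratio of beta-actin was 2.85 in diabetic animal 6, 1.77 to 2.25 in the other 6 diabetic arrays and 1.63 to 2.75 in normal arrays.

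The Arrdc4 promoter is shown because this gene had the larger difference between the groups and because the factors named above act through promoter E-boxes. The sequence is that of RefSeq for GRCr8 at chr1:131793376-131793675, minus strand. It is taken as 250 bases before a start position and 50 bases after it. Positions below are counted from this start, which differs from the gene boundary given above (131793438). Capitals mark the E-box CACGTG and the CCAAT box, read on both strands, so that a CCAAT box on the opposite strand appears as ATTGG. Only Arrdc4 was matched, 1 of 2 genes.
Arrdc4: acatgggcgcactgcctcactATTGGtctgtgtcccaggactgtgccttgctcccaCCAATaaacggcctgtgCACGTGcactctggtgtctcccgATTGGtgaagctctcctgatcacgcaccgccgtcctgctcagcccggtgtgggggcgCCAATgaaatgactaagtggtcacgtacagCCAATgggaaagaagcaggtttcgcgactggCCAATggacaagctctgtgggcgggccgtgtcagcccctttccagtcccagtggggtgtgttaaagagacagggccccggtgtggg
The window held 1 CACGTG, whose first base lay at position -177 from the start, and such a palindrome was present in 6.42% of 33469 rat promoters of the same length. It held 6 CCAAT boxes, the element recognised by the trimeric factor NF-Y, beginning at -229, -194, -154, -97, -67 and -36. At least 1 CCAAT box was found in 37.5% of the promoters and at least 6 in 14 of them (0.0418%). None of the marked elements overlapped another. An exact pair of 2 CACGNG elements in the same direction with 5 bases between them was searched on both strands. It had 0 matches in the window and was present in 0.0359% of promoters. Imperfect or inverted pairs were not searched, so this does not show whether the window holds a carbohydrate response element. TATAAA had 0 matches and was present in 14.2%. These matches describe letters in this window and not binding in lung.

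Arrdc4 was higher in every diabetic lung than in any normal lung. Diabetic animals 1 to 7 had signals of 627.7, 691.5, 724.4, 655.7, 766.2, 591.3 and 647.5. Normal animals 1 to 5 had signals of 313.3, 522.3, 313.3, 311.6 and 323.8. The groups did not overlap, with the lowest diabetic signal 69.0 above the highest normal one, and that gap was set by a single normal animal, number 2. The mean was 672 ± 59.6 in diabetic and 357 ± 92.6 in normal lung (SD, n = 7, 5), a fold change of 1.88. On the log2 scale the difference was 0.94 (SE 0.12, 95% interval 0.68 to 1.20, limma). Without normal animal 2 the other 4 normal lungs had a mean of 315.5 ± 5.59, a coefficient of variation of 1.77% against 26.0% with it, and the log2 difference was 1.09. By absolute log2 difference Arrdc4 stood at place 18 of the 9520 probe sets left by the filter.

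Txnip, whose protein is the thioredoxin-binding member of the pair, had a smaller difference and groups that overlapped. Diabetic animals 1 to 7 had signals of 13216.8, 15996.4, 15277.2, 13455.6, 12790.8, 17221.5 and 14964.6. Normal animals 1 to 5 had signals of 12338.9, 10745.1, 9521.3, 11618.7 and 13189.2. Of the diabetic lungs 6 of 7 lay above all normal lungs, and diabetic animal 5 lay 398.4 below normal animal 5, the highest of its group. The mean was 14703 ± 1625 in diabetic and 11483 ± 1419 in normal lung (SD, n = 7, 5), a fold change of 1.28. The log2 difference was 0.36 (SE 0.09, 95% interval 0.16 to 0.55, limma), place 595 of 9520. Txnip varied to a like degree in both groups, with a coefficient of variation of 11.0% in diabetic and 12.4% in normal lung, whereas that of Arrdc4 was 8.87% in diabetic lung.

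**Figure D1:**
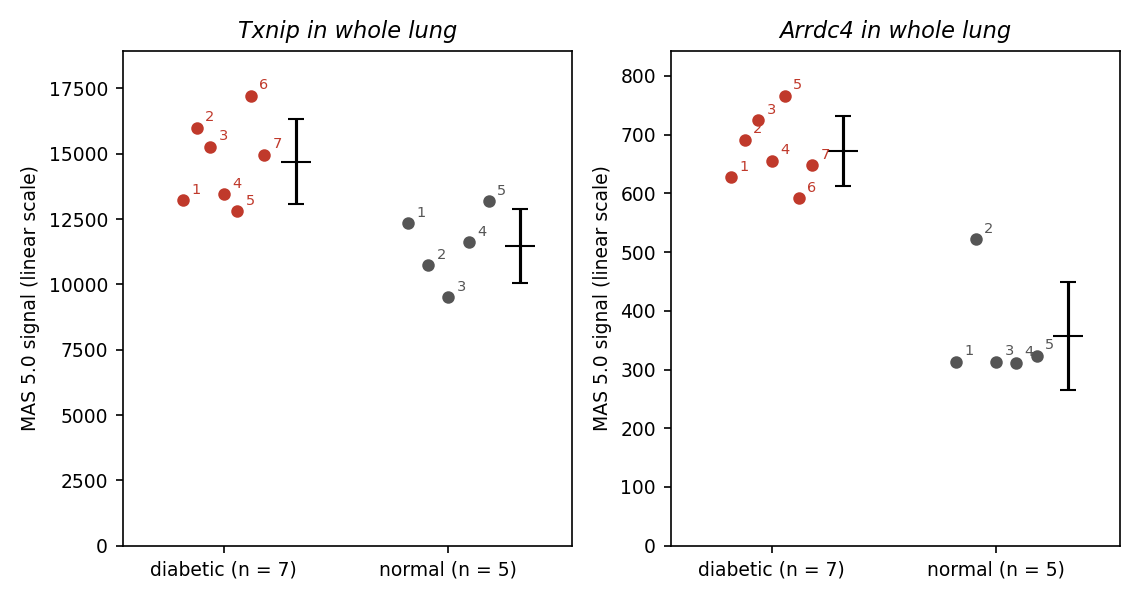
MAS 5.0 signal (linear scale, from 0) of Txnip on the left and Arrdc4 on the right in each diabetic (red, n = 7) and normal (grey, n = 5) lung, numbered by animal, with the mean and SD as black bars. The Arrdc4 signals of the diabetic animals lie between 591.3 and 766.2, all above the highest normal signal of 522.3, while the Txnip signals overlap.

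Of the 2 genes, 1 did not overlap between the groups with the diabetic animals higher, and over all probe sets tested 0.924% did so. Since the genes were picked on this contrast, that count is a description. Over the same 9520 probe sets the median log2 difference was -0.01, and 47.2% lay above 0. Txnip ranged from 0.29 to 0.41 and Arrdc4 from 0.90 to 1.09 on the log2 scale as each animal was left out in turn. Without both diabetic animal 6 and normal animal 2, the log2 difference was 0.30 for Txnip and 1.12 for Arrdc4.

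Of the 2 integrity ratios on the array, that of GAPDH moved with the groups, while the means of that of beta-actin lay close together. Whether the GAPDH ratio reflects RNA quality or the GAPDH transcript itself cannot be told apart here. The GAPDH 3' to 5' ratio averaged 1.15 ± 0.0710 in diabetic and 1.32 ± 0.0778 in normal lung (SD, n = 7, 5), and among the 7 diabetic animals it had a Pearson's r of 0.73 with Txnip and -0.45 with Arrdc4. With this ratio as a covariate in limma, the log2 difference was 0.58 (95% interval 0.31 to 0.86) for Txnip and 0.82 (0.39 to 1.25) for Arrdc4. That of beta-actin was 2.08 ± 0.372 in diabetic and 2.06 ± 0.437 in normal lung, with an r of 0.62 with Txnip and -0.60 with Arrdc4 in the diabetic animals.

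The cell types of the lung were compared through the summed signal of their markers. For fibroblasts, with all 5 listed markers measured, the sum ranged from 8742 to 12938 in diabetic and from 14865 to 15855 in normal lung, so that it moved with the groups. Of these 5 genes 0 passed an adjusted p of 0.05 in limma. At an unadjusted p under 0.05 the growth factor receptor gene Pdgfra was higher (log2 difference 0.58). The collagen genes Col1a2 (-0.94) and Col3a1 (-0.97) and the proteoglycan gene Lum (-0.65) were lower at that p. The remaining marker, Dcn, also lay above 0, so 2 of the 5 log2 differences were above 0 and 3 below. The sum adds linear signals, so bright markers weigh most in it. The sums of 5 type II cell markers (62104 to 84492 in diabetic, 66239 to 80722 in normal lung) and 4 endothelial markers (12269 to 17544 and 13247 to 16317) overlapped, as did those of macrophages (1850 to 3147 and 1685 to 2242). Both macrophage markers had a log2 difference of 0.29, 1 with an unadjusted p under 0.05 in limma. Sums of lymphocyte (421 to 1039 and 859 to 1121) and erythroid markers (19454 to 27712 and 22411 to 31627) overlapped. At that p, 1 of 3 tested lymphocyte and 1 of 2 tested erythroid markers were lower. The sum of 4 type I cell markers also overlapped (20204 to 26047 and 24415 to 27313), yet 3 of the 4 had an unadjusted p under 0.05 in limma and 0 passed the adjusted threshold. The water channel gene Aqp5 (log2 difference -0.52) and Ager (-0.24) were lower and Hopx (0.23) was higher at that unadjusted p. The part of the GAPDH ratio and of cell composition in the signals of Txnip and Arrdc4 was not tested.

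Within the diabetic group the order of the animals differed between the 2 genes. Diabetic animal 6 had the highest Txnip and the lowest Arrdc4, and diabetic animal 5 had the lowest Txnip and the highest Arrdc4. Over the 7 diabetic animals Pearson's r of the log2 signals was -0.42 and Spearman's rho -0.36. Without animals 5 and 6, the 2 farthest from the median of Txnip, r was 0.73 over the other 5, so the negative sign rested on those animals. Leaving out a single diabetic animal gave an r between -0.64 and -0.02, the weakest values being -0.10 without animal 5 and -0.02 without animal 6.

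Both groups were then joined by taking each animal's deviation from its own group mean, which removes the difference between the groups. Over these 12 deviations r was -0.27 and rho -0.29, and r was -0.40 without normal animal 3 and diabetic animal 5. Normal animal 2, with the highest Arrdc4 of its group by far, had the second lowest Txnip. Values of 1 array share its hybridization and its scaling factor. With each array centred on its median, r was -0.35 in the diabetic group and -0.18 over the deviations.

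**Figure D2:**
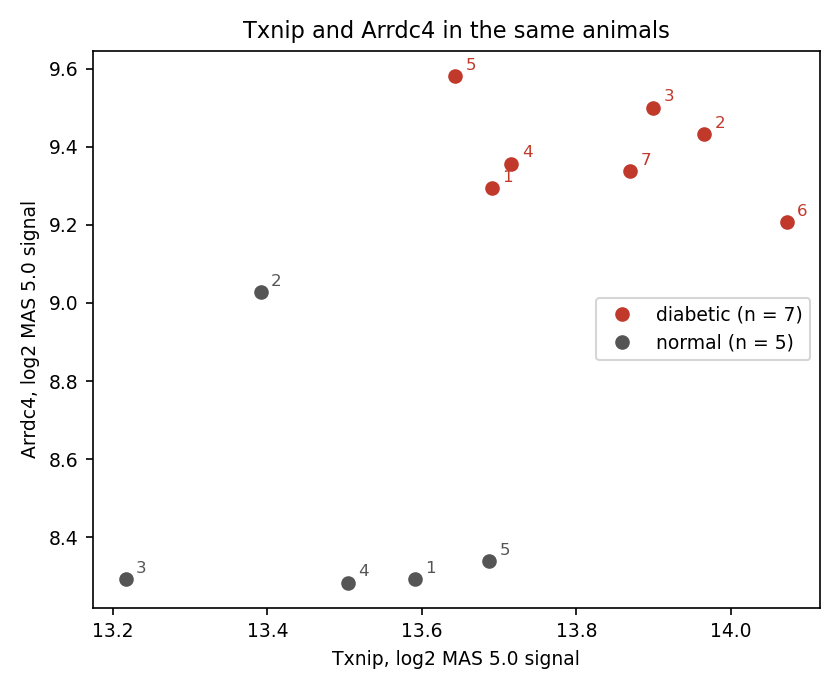
Log2 MAS 5.0 signal of Arrdc4 (vertical axis) against that of Txnip (horizontal axis) in each diabetic (red, n = 7) and normal (grey, n = 5) lung, numbered by animal. Diabetic animals 5 and 6 sit at opposite corners of the diabetic group, and normal animal 2 stands above the other normal animals.

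The genes most like each of them within the groups were then sought among 8042 probe sets naming a single gene, from which the gene's own probe set was left out. By Pearson's r over the 12 deviations, those most like Txnip were Zfp746, a zinc finger repressor gene (0.95), Rps16, of the small ribosomal subunit (0.92), P4ha2, a collagen prolyl hydroxylase (0.91), Map1b, a microtubule-associated protein (0.90), and Oxct1, an enzyme of ketone body use (0.89). Arrdc4 stood at place 5942 in that order. Diabetic animal 6 had the highest signal of its group for Txnip, Zfp746 (582.7), Rps16 (13498), P4ha2 (1374) and Oxct1 (944.0), and ranked second for Map1b. Of these 5 genes 0 passed an adjusted p of 0.05 for the difference between the groups in limma, and 1 had an unadjusted p under 0.05. That gene, Oxct1, had 759 ± 94.9 in diabetic and 955 ± 146 in normal lung (SD, n = 7, 5) and a log2 difference of -0.33 (adjusted p = 0.155), a sign opposite to that of Txnip.

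Those most like Arrdc4 were Specc1l, a cytoskeletal cross-linker (0.85), U2surp, a splicing protein (0.83), Dnajc13, an endosomal co-chaperone (0.83), Tank, a regulator of NF-kappaB signalling (0.82), and Las1l, a ribosome biogenesis protein (0.81). Txnip stood at place 6535 in that order. Normal animal 2 had the highest signal of the normal group for each of these 5 genes, as for Arrdc4, with 633.4 for Specc1l against 405.6 to 449.6 in the other 4 normal lungs. Its Arrdc4 deviation (0.58) was the largest, so this likeness follows in part from the ranking. Spearman's rho over the deviations was 0.65 to 0.75. Within the diabetic group r was 0.50 for Specc1l, 0.81 for U2surp, 0.67 for Dnajc13, 0.91 for Tank and 0.42 for Las1l. Of the 5, 0 passed the adjusted threshold in limma and 0 had an unadjusted p under 0.05, and their log2 differences ran from -0.10 for Specc1l to 0.26 for Las1l. Likeness over 12 animals was taken from the largest of many correlations and is given as a description.

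**Figure D3:**
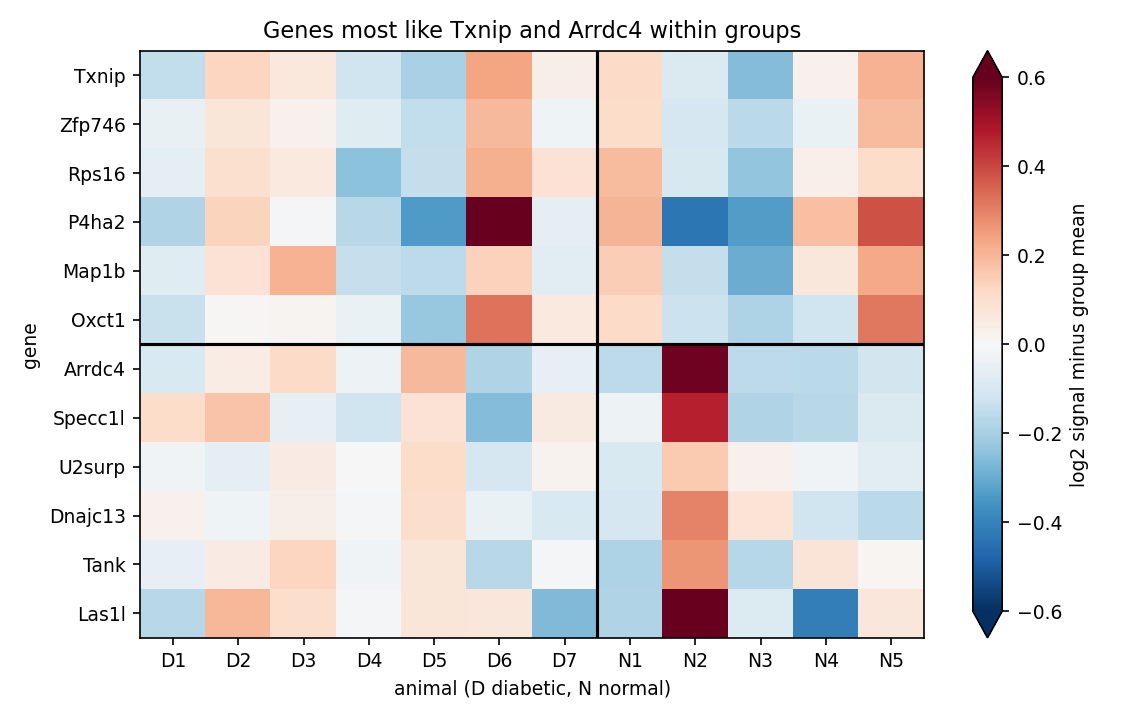
Log2 signal minus the mean of the animal's own group (colour, red above and blue below the group mean, saturated beyond 0.6) in diabetic animals D1 to D7 and normal animals N1 to N5, for Txnip and the 5 genes most like it (upper block) and Arrdc4 and the 5 most like it (lower block). Diabetic animal 6 is high through the Txnip block except that diabetic animal 3 is higher for Map1b, and normal animal 2 is high through the Arrdc4 block.

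Other genes of the pathway were taken from 11 lists arranged by known function and fitted with all 9520 probe sets, 1 probe set per gene. Of all probe sets tested 16 passed an adjusted p of 0.05 (0.168%; limma, Benjamini-Hochberg), 0.0945% with a higher and 0.0735% with a lower signal in diabetic lung. The shares with an unadjusted p under 0.05 were 7.75% on the higher side and 8.68% on the lower side. Across the 11 lists 1 gene passed the adjusted threshold, Klf10. The total of 16 depended on single animals, with 2 to 9 probe sets called when normal 1, 2, 4 or 5 was dropped, 5 to 8 when diabetic 1, 2, 3 or 4 was, and 27 when diabetic 5 or 6 was. With the GAPDH ratio as a covariate it was 288, and 5 list genes passed.

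Klf10, a zinc finger factor induced by TGF-beta and, in hepatocytes, by glucose through ChREBP, was higher in diabetic lung. Diabetic animals 1 to 7 had signals of 1025.1, 1293.7, 1654.9, 1265.2, 1078.1, 2169.0 and 1353.2. Normal animals 1 to 5 had signals of 674.0, 771.5, 870.0, 858.0 and 709.5. The groups did not overlap, and the log2 difference was 0.82 (SE 0.15, adjusted p = 0.0482 in limma, higher in 7 of 7 animals). The call held in 10 of 22 other settings, with adjusted p between 0.00528 and 0.125, and in 3 of the 12 fits that left out 1 animal, those without diabetic 1, 5 or 6. Among the diabetic animals Klf10 had an r of 0.86 with Txnip (n = 7, and 0.74 without animal 6) and of -0.41 with Arrdc4 (0.18 without animal 6), and the difference between these was not tested. Over the 12 deviations, normal animals included, r was 0.42 with Txnip and -0.18 with Arrdc4, and the normal animal of lowest Txnip, number 3, had the highest Klf10 of its group.

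The factors that sense phosphorylated glucose showed no call. Mlxip, the gene of MondoA, had 685 ± 144 in diabetic and 569 ± 77.5 in normal lung (SD, n = 7, 5), a log2 difference of 0.25 (adjusted p = 0.345, limma), and its 982.4 in diabetic animal 6 was far above the other 6 diabetic signals (544.5 to 701.4). Its partner Mlx had 687 ± 89.8 in diabetic and 693 ± 169 in normal lung, and Mlxipl, the gene of ChREBP, lay under the filter with mean signals of 102 and 85.6. Of the 8 glucose-responsive and MAX-network factors tested, of 11 listed, 0 passed the adjusted threshold, 1 was higher at an unadjusted p under 0.05 and the median log2 difference was -0.01. Mxi1, a MAX partner that represses transcription, did not overlap between the groups, with 1170 to 1866 in diabetic lung (median 1309) and 1078.9, 1118.9, 1077.1, 1089.8 and 1085.5 in normal animals 1 to 5 (log2 difference 0.35, unadjusted p = 0.00570, adjusted p = 0.141, limma).

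Genes known to be induced through ChREBP or MondoA were read as a list. Of 9 tested (of 20 listed) 1 was called, Klf10, and at an unadjusted p under 0.05 3 were higher and 1 lower, with a median log2 difference of 0.04. Pfkfb3, which makes the activator of phosphofructokinase, had a log2 difference of 0.40 (adjusted p = 0.260, limma), and Mid1ip1, a partner of acetyl-CoA carboxylase, had 0.27 (adjusted p = 0.202). Scd, a fatty acid desaturase, had 587 ± 215 in diabetic and 1203 ± 476 in normal lung (SD, n = 7, 5), 2.05-fold lower by the means with overlapping groups (95% interval of the log2 difference -1.60 to -0.40, adjusted p = 0.111).

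The other arrestin-fold genes that could be tested had log2 differences near 0. Of 6 on the array 3 passed the filter and 0 were called, at an adjusted p or an unadjusted p under 0.05 in limma, with a median log2 difference of -0.03. Arrdc3, an alpha-arrestin known for acting on beta-adrenergic receptors, had 2779 to 3912 in diabetic lung (median 3064) and 3396.8, 3218.3, 3162.6, 3248.1 and 2409.1 in normal animals 1 to 5. Its log2 difference was 0.07 (95% interval -0.15 to 0.29). Arrdc1, which takes part in vesicle budding at the plasma membrane, had 840 ± 66.5 in diabetic and 895 ± 48.8 in normal lung (log2 difference -0.09, 95% interval -0.25 to 0.07), and the beta-arrestin Arrb2 had 345 ± 48.3 and 350 ± 39.4 (-0.03, 95% interval -0.26 to 0.21). Arrb1 and the visual arrestins Sag and Arr3 lay under the filter.

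The partners and targets of the Txnip and Arrdc4 proteins were read next. Thioredoxin (Txn1), which Txnip binds, had 11449 ± 494 in diabetic and 11242 ± 570 in normal lung (SD, n = 7, 5), a log2 difference of 0.03 (95% interval -0.09 to 0.15). Of 11 genes of the thioredoxin system tested, of 14 listed, 0 were called and 2 were lower at an unadjusted p under 0.05 in limma, with a median of 0.03. These were thioredoxin reductase Txnrd1, with 911 ± 67.0 in diabetic and 1084 ± 110 in normal lung (log2 difference -0.25, adjusted p = 0.154), and the peroxiredoxin Prdx2 (-0.20, adjusted p = 0.285).

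Slc2a1, the gene of GLUT1, had signals of 260.1 to 375.8 in diabetic lung (median 309.6) and 370.1, 345.9, 327.1, 375.1 and 338.6 in normal animals 1 to 5. The groups overlapped, with 5 of 7 diabetic animals below all normal animals (log2 difference -0.19, adjusted p = 0.334, limma). Among the diabetic animals Slc2a1 had an r of 0.88 with Txnip (n = 7, and 0.77 without animal 6), and of 0.71 over the 12 deviations. All 4 tested genes of glucose transporters and hexokinases (of 17 listed) had negative log2 differences, with 0 called, 0 at an unadjusted p under 0.05 in limma and a median of -0.16.

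NEDD4-family ligases bind the PPxY motifs of alpha-arrestins. Nedd4 itself had 9084 ± 767 in diabetic and 8819 ± 894 in normal lung (SD, n = 7, 5; log2 difference 0.04), and Nedd4l, known for removing the epithelial sodium channel from the cell surface, had 689 ± 178 and 478 ± 104 (0.51, adjusted p = 0.189, limma). Of 7 genes tested, of 11 listed, 0 were called, and at an unadjusted p under 0.05 2 were higher and 1, Wwp2 (-0.23), was lower. Txnip is also known to bind to the NLRP3 inflammasome. Of its 8 listed genes 5 were tested, and Nlrp3 itself had no probe set naming it alone. All 5 log2 differences lay above 0 (median 0.12), 0 genes were called and 1 was higher at an unadjusted p under 0.05 in limma. This gene, Il1b, had a log2 difference of 0.43 (adjusted p = 0.298) with diabetic animal 3 far above the rest.

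Glucocorticoid, insulin, PPAR and AMP kinase signals are known to act on Txnip or on glucose use. Lists of genes under glucocorticoid, insulin and PPAR control and a list of AMP kinase subunits and activators held 0 called genes. Their medians were 0.10 over 12 glucocorticoid targets, 0.15 over 9 FOXO and insulin-repressed genes, 0.06 over 9 PPAR targets and -0.06 over 4 AMP kinase genes. At an unadjusted p under 0.05 in limma, 3, 3, 1 and 1 of them were higher and 0, 2, 0 and 0 were lower. The nearest to the adjusted threshold was Dusp1, a phosphatase of MAP kinases induced by glucocorticoids, with 3752 ± 348 in diabetic and 2823 ± 537 in normal lung (SD, n = 7, 5; log2 difference 0.43, adjusted p = 0.0886). Angptl4, an inhibitor of lipoprotein lipase, had 267 ± 145 and 142 ± 38.0 (0.83, adjusted p = 0.155). Prkaa1, a catalytic subunit, was the AMP kinase gene higher at an unadjusted p under 0.05 (0.20, adjusted p = 0.267, limma). It was read from the brighter of its 2 probe sets. The authors, with another test, list Prkaa1 among the genes increased in diabetic lung. Differences of other lists can be read beside those of Txnip and Arrdc4 in the plot of log2 differences by list.

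**Figure D4:**
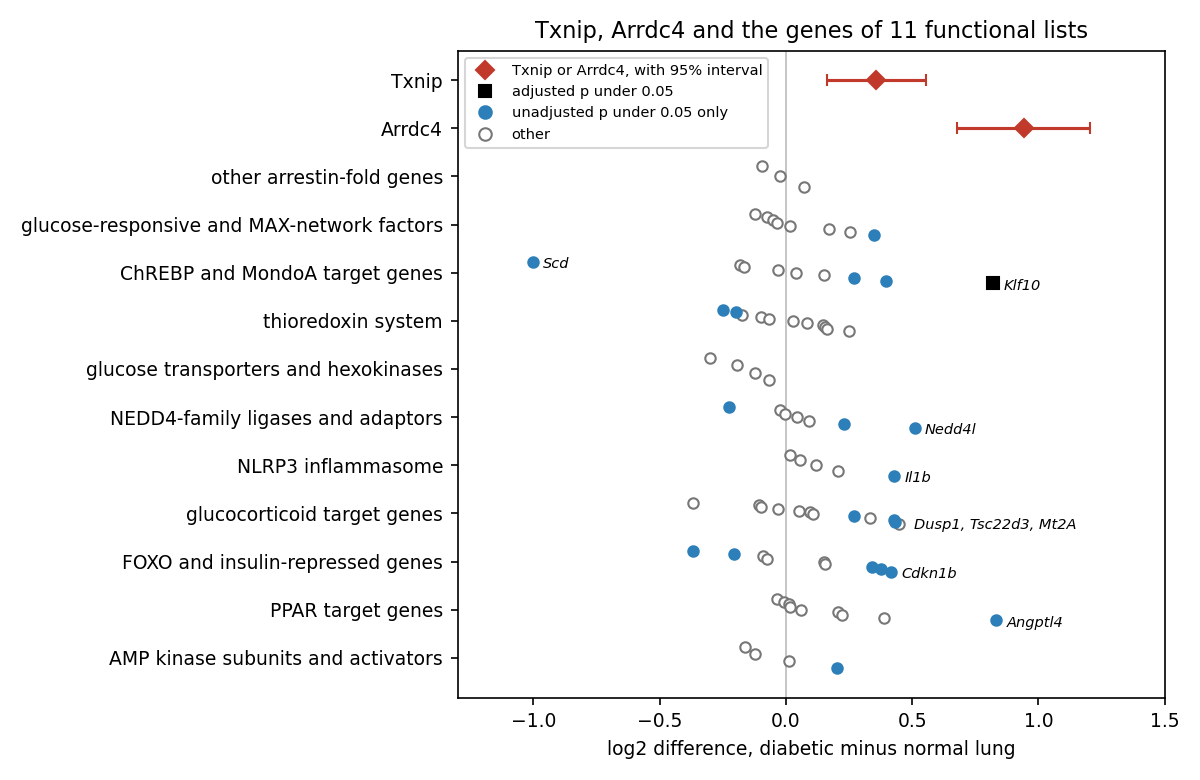
Log2 difference, diabetic minus normal lung, of Txnip and Arrdc4 (red diamonds with the 95% interval of limma) and of each tested gene of the 11 functional lists (points, slightly offset within a row). Klf10 (black square, 0.82) is the single list gene past an adjusted p of 0.05, blue points have an unadjusted p under 0.05, and the other points are open.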

How the data were processed

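The deposited values are MAS 5.0 signals of Affymetrix RAE 230A arrays, an intensity on a linear scale that the authors computed per probe set and array (MAS version 5) and scaled to a common trimmed mean. They were log2-transformed, with 1 value at or below 0 set to 0.1, and 57 control probe sets were left out. Probe sets were named through the platform annotation and RefSeq gene tables: 12783 name 1 gene, 312 several and 2771 none. The 40% with the lowest mean log2 signal (under 170.0) were removed, and 9520 were fitted in R 4.3.3 with limma 3.58.1 (intensity trend, two-sided, Benjamini-Hochberg, adjusted p 0.05). Correlations and figures used Python 3.11.15 with scipy 1.17.1 and matplotlib 3.10.9. A list gene was read from its brightest probe set.

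The genes and lists were chosen with earlier results of these data known. Named were Txnip, Arrdc4, the other arrestin-fold genes, called list genes, up to 4 list genes of smallest p per list, the 5 genes most like each of the pair, and markers where a list moved with the groups. Mlx, Mlxipl, Txn1, Nedd4 and lung markers were named outside that rule, after their values were seen. Each sample is a separate animal, 1 array each, and the number of arrays limits precision. The fit was also run on simulated data with independent normal errors. Those data hold no shared array effects and no outlying animals, so they do not bear on the shifts between settings. Alternatives covered scaling, pseudocount, filter, trend, array weights, a block on the replicate number and each animal left out. The GAPDH ratio as a covariate and a fit without diabetic animal 6 and normal animal 2 were chosen after seeing the data. BAMarray and the heart arrays were not used here.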

Additional observations from a re-analysis of the deposited data

Results flagged for a closer look

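Single animals far from the rest of their group were sought in 110 groups (55 named genes, diabetic and normal). The gap to the nearest animal was compared with the range of the group, and 15 were found. Chance gives about 1 in 20 independent groups. These groups share arrays, and many of the genes were picked from these data, so the count cannot be tested against that rate. Diabetic animal 6 accounted for 7 of the 15, normal animal 2 for 3 and diabetic animal 3 for 2.

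Arrdc4 was 522.3 in normal animal 2, against 311.6 to 323.8 in the other 4 normal lungs. In the same animal Specc1l was 633.4 (405.6 to 449.6 in the others), and Cdkn1b, a cell cycle inhibitor, was low at 1719.5 (2857.4 to 3310.4).

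Diabetic animal 6, which had the highest Txnip, stood above the other 6 diabetic animals for Mlxip (982.4 against 544.5 to 701.4), Pfkfb3 (855.8 against 354.6 to 565.8), Tsc22d3 (5037.8 against 2682.0 to 3462.5) and Errfi1 (1983.2 against 826.9 to 1259.2). It did so too for Irs2 (687.9 against 340.3 to 488.6), Cdkn1b (5732.6 against 3223.4 to 3636.5) and P4ha2 (1374.1 against 710.1 to 985.9).

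The remaining 5 were spread over 4 animals. Diabetic animal 3 had 1181.3 for Il1b (384.5 to 701.2 in the others) and 588.9 for Angptl4 (175.4 to 271.6). Diabetic animal 5, with the highest Arrdc4, had 1900.8 for Smurf2 (1617.7 to 1728.6). Normal animal 5 had a low Arrdc3 of 2409.1 (3162.6 to 3396.8), and normal animal 4 had 443.3 for Wwp2 (328.5 to 356.1).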

How the results depend on the processing

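The log2 difference of Arrdc4 stayed between 0.82 and 1.12 in 21 alternatives, and that of Txnip between 0.29 and 0.41 in 20, while Txnip was 0.58 with the GAPDH ratio as a covariate. Leaving out 1 animal gave 0.90 to 1.09 for Arrdc4 and 0.29 to 0.41 for Txnip. The r of Txnip with Arrdc4 in the diabetic group turned to 0.73 without animals 5 and 6, and leaving out 1 animal gave -0.643 to -0.023 there. Over the 12 deviations it was -0.176 with each array centred on its median and -0.396 without normal 3 and diabetic 5, and leaving out 1 animal gave -0.500 to -0.172. No other probe set of either gene could be tried, since each has 1.

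The 16 probe sets called overall were 288 with the GAPDH covariate, 80 with array weights, 32 with the lowest 60% removed, 25 after quantile normalization, 9 without the trend and 7 without a filter. Leaving out 1 animal gave 2 to 27, with 2 without normal 2 or normal 4 and 27 without diabetic 5 or diabetic 6. Of the calls 56.2% were higher in diabetic lung, and 75.0% after centring each array on its median. The 1 called list gene became 5 with the GAPDH covariate (Mxi1, Klf10, Irs2, Foxo3 and Gadd45a), 2 with array weights (Klf10 and Scd), 0 without the trend, 0 without a filter and 0 without diabetic 6 and normal 2, and 0 to 1 without single animals. The cause of these shifts was not tested.

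Animals of the same replicate number did not deviate together (r from -0.12 to 0.04 over 5 pairs), so the numbers name animals only. With the replicate number as a block, which drops the 2 diabetic animals without a partner from the comparison, 11 probe sets were called, and the log2 difference was 0.30 for Txnip and 0.99 for Arrdc4.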

Other observations

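Acadm, the medium-chain acyl-CoA dehydrogenase of fatty acid oxidation and a PPAR target, had an r of 0.91 with Txnip among the 7 diabetic animals, 0.85 without animal 6 and 0.57 over the 12 deviations from group means. The same 3 values were 0.86, 0.83 and 0.68 for Sesn1, a FOXO target, and 0.85, 0.72 and 0.72 for Fkbp5, a glucocorticoid target. Each of these 3 lists also held negative values, so none moved with Txnip as a whole. The lowest r in the diabetic animals was -0.81 (Slc25a20, PPAR), -0.50 (Foxo1, FOXO) and -0.41 (Cebpb, glucocorticoid). The highest r with Txnip of any tested list gene there was 0.92, for Mxd4 of the MAX network. For Arrdc4 the list genes with the highest r in the diabetic animals included Foxo1 (0.82, and 0.68 without animal 6) and Nedd4 (0.80 and 0.65), but over the 12 deviations r was 0.13 for Foxo1 and 0.27 for Nedd4. These genes were picked after their values were seen, from the correlations of all tested list genes, and 7 animals give no test of them.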
